A study of Canis lupus familiaris with 186 samples.

Results

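MYC and 9 genes that lie with it on canine chromosome 13 were followed across primary osteosarcomas of dogs. The genes were chosen by name, as the rows of the deposited count table that carry their symbols, and they make up 10 of 37952 genes. The tumors came from 186 pet dogs of the trials COTC021 and COTC022 of the Comparative Oncology Trials Consortium, with 93 dogs in each, and 1 library was analysed per dog. Every library was bulk mRNA of a primary tumor, with no normal bone or other control among the samples analysed here, and the labels give no age, breed or treatment for a dog. The outcome of the dogs and the number of gene copies in the tumors were not analysed here.

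MYC encodes a transcription factor that pairs with MAX and raises the expression of genes for ribosome production, nucleotide synthesis and growth. The stretch of chromosome around MYC is often gained in osteosarcoma of dogs and humans, and a gain carries the neighboring genes with it. Genes on a gained segment can therefore vary together across tumors, and expression of each gene also follows its own regulators.

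In order along chromosome 13 of the build GSD_1.0, the first member is RAD21, at 16711252 to 16741853, which encodes the kleisin subunit of cohesin, the ring that holds sister chromatids together. DERL1, at 21836798 to 21865874, encodes a channel protein of the endoplasmic reticulum (ER) through which misfolded proteins leave for degradation. ATAD2, at 22081783 to 22156297, encodes a bromodomain ATPase of chromatin, and FBXO32, at 22218984 to 22252700, encodes the ubiquitin ligase subunit atrogin-1 of wasting muscle. TATDN1, at 22976000 to 23040061, encodes a TatD-family nuclease, and MTSS1, at 23048188 to 23210026, encodes a membrane-bending protein that acts on actin. SQLE, at 23408709 to 23432884, encodes squalene epoxidase, a rate-limiting enzyme of sterol synthesis. MYC itself lies at 25629077 to 25633621. PTK2, at 35917116 to 36183296, encodes the focal adhesion kinase FAK, and RECQL4, at 38681262 to 38687377, encodes a helicase that takes part in the start of DNA replication. The neighbors thus begin between 8.92 Mb before and 13.05 Mb after the start of MYC, and SQLE, 2.22 Mb before it, is the nearest of them. In the annotation ATAD2 overlaps NTAQ1 and LOC102154406, TATDN1 overlaps RNF139, and PTK2 overlaps MIR151 and LOC111098576. The library kit kept the strand, but whether the counting used it is not given in the sources used here, so reads in the overlaps cannot be assigned with certainty.

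Library totals ranged from 6587631 to 27420857 counts, with a median of 10797162. In the deposited column names, 50 libraries carry 2 low lines (_) in a row, and they are called series A here. Their totals had a median of 19440449, and those of the other 136, called series B, a median of 9851681. Series A holds 18 dogs of COTC021 and 32 of COTC022, so the name series was a covariate beside the trial and results are also given within it. Of the 8 osteoblast markers looked up, all were detected somewhere, with a summed level between 461 and 114672 CPM. Most of that sum was COL1A1, with a median of 20451 CPM. DMP1 was at 0 in 4 dogs and IBSP, PHEX and SP7 in 1 each. In bulk tumor, fewer cells of a type and less RNA per cell cannot be told apart. All 10 members passed the low-count filter that 13422 genes passed, and each of their counts was a whole number.

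MYC was detected in every tumor. It ranged from 8.71 to 371 CPM (counts scaled to the library total), with a median of 26.7, and 8 dogs lay above 3 times that median. The upper tail was long, with the highest dog at 371 CPM and the next at 173 and 169 CPM. On the log2 scale after normalization by the trimmed mean of M values (TMM), the median of MYC was 4.65 in COTC021 and 4.84 in COTC022, with overlapping ranges.

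The neighbors before MYC varied by unlike amounts. RAD21 ranged from 97.1 to 1906 CPM with a median of 269, and DERL1 from 38.9 to 621 CPM with a median of 114. ATAD2 ranged from 18.1 to 457 CPM with a median of 74.9. Each of them had a few high dogs, 1 above 3 medians for RAD21, 4 for DERL1 and 5 for ATAD2. FBXO32 ranged from 9.49 to 1323 CPM with a median of 67.2, and its highest dog stood well apart from the next, at 525 CPM. TATDN1 ranged from 6.32 to 120 CPM with a median of 20.6, and MTSS1 from 12.0 to 504 CPM with a median of 69.5. SQLE, the sterol enzyme, had the broadest spread of the members. It ranged from 2.98 to 280 CPM with a median of 39.3, and 28 dogs lay above 3 medians.

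Of the members after MYC, PTK2 ranged from 33.2 to 339 CPM with a median of 98.6. RECQL4 ranged from 0.0856 to 35.0 CPM with a median of 4.47, and its lowest dog had 1 count. The SD of log2 CPM was 0.81 for MYC, 1.31 for SQLE, 1.20 for RECQL4, 0.97 for FBXO32 and 0.93 for MTSS1, against a median of 0.62 over all genes tested. It was 0.73 for ATAD2 and 0.69 for TATDN1. DERL1 with 0.56, RAD21 with 0.54 and PTK2 with 0.50 varied less between dogs than the median gene.

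**Figure D1:**
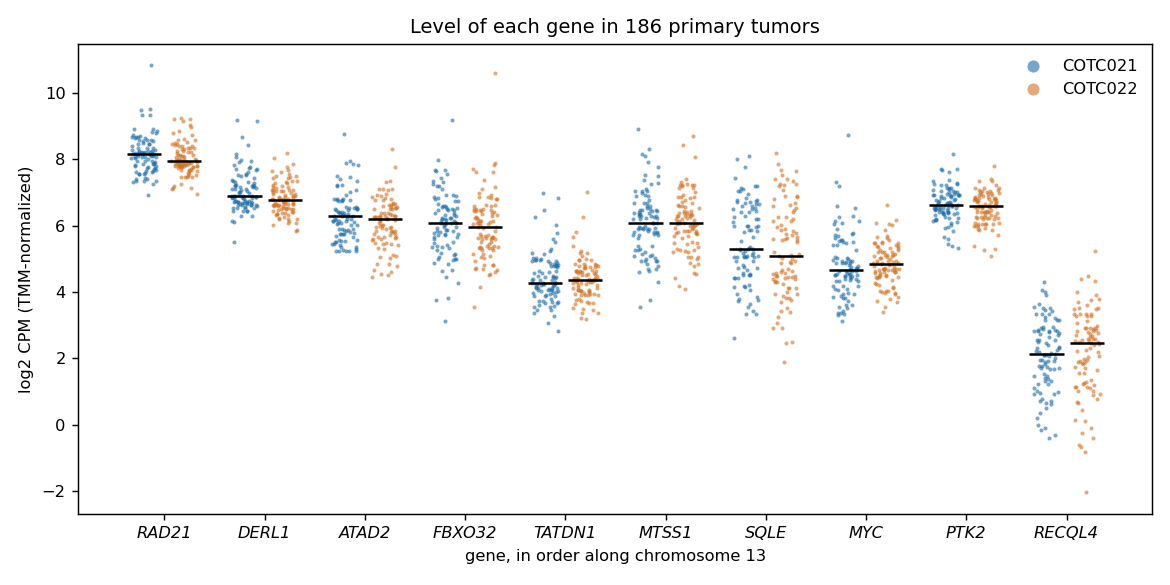
TMM-normalized log2 CPM of each gene in 186 tumors, in order along chromosome 13. Each point is 1 dog, blue for COTC021 and orange for COTC022, and the black bar is the median of the trial. The trials overlap for every gene, and SQLE and RECQL4 spread most.

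Across the dogs, the neighbors varied with each other more closely than with MYC. Pearson's r was computed on log2 CPM after removal of the trial and the name series, so that it describes variation among dogs within those groups. The 9 pairs of a neighbor with MYC had a median r of 0.12, from -0.00089 to 0.29. The 36 pairs among the neighbors had a median of 0.25, from -0.25 to 0.64, and 33 of them were above 0. The median over all pairs of genes tested was -0.0036, and over pairs of genes on chromosome 13 it was 0.11. The kinds of pair lie at unlike distances: no neighbor starts closer to MYC than 2.22 Mb, while several neighbors start within 2 Mb of each other. On chromosome 13, pairs of genes 0.1 to 2 Mb apart had a median r of 0.29. It was 0.15 at 2 to 5 Mb, 0.13 at 5 to 10 Mb and 0.10 at 10 to 20 Mb. The part of distance in the difference was not tested.

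The closest pair was DERL1 with ATAD2 at 0.64, followed by RAD21 with ATAD2 at 0.63 and RAD21 with DERL1 at 0.52. RAD21 and ATAD2 start over 5 Mb apart, while FBXO32, whose start is the nearest to that of ATAD2 among the members, had an r of 0.02 with it. The 5 genes RAD21, DERL1, ATAD2, TATDN1 and SQLE, grouped here after their values were seen, had a median r of 0.47 over their 10 pairs, from 0.36 to 0.64. The 21 pairs in which both genes lie before MYC had a median of 0.36, and the 14 pairs that span MYC had 0.21. PTK2 and RECQL4, both after MYC, had an r of 0.13. The pairs below 0 were RECQL4 with FBXO32 at -0.25, SQLE with FBXO32 at -0.09, RECQL4 with MTSS1 at -0.05, and MTSS1 with MYC near 0.

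Within the trials, the median r of the neighbors was 0.30 in COTC021 and 0.25 in COTC022, beside 0.13 and 0.17 for the pairs with MYC. In series A these medians were 0.30 and 0.13, and in series B 0.25 and 0.07. The neighbors thus had the higher median in each of these groups of libraries. Whether the difference between the kinds of pair is larger than chance was not tested.

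**Figure D2:**
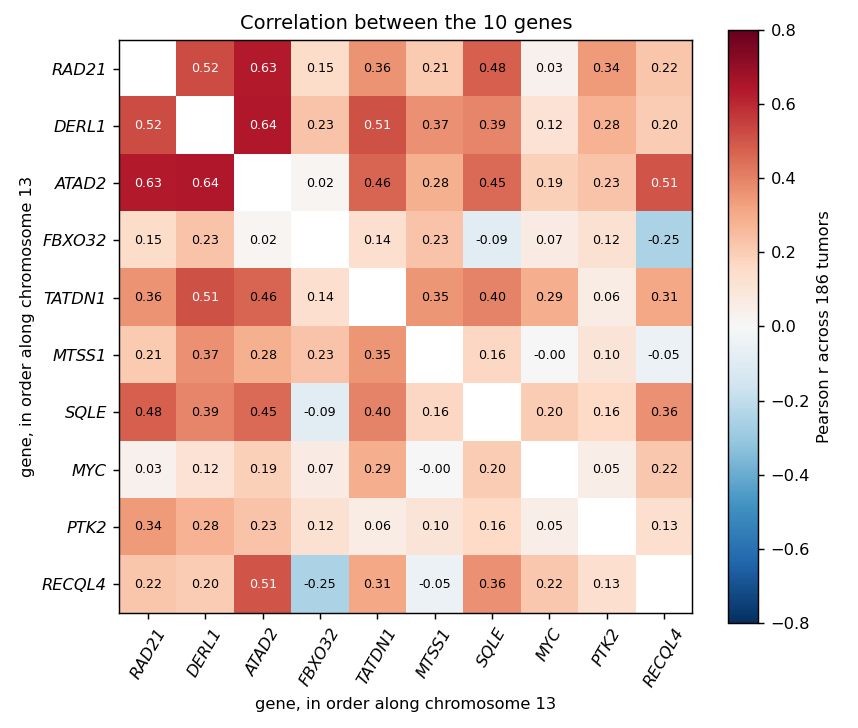
Pearson's r of each pair of the 10 genes across 186 tumors, with genes in order along chromosome 13 on both axes. Red is above 0 and blue below 0. The block of RAD21, DERL1 and ATAD2 is deepest, with r from 0.52 to 0.64, and the row of MYC stays below 0.30.

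Single dogs stood out at several members at once. The library of COTC021 dog 26 ranked 1 of 186 for ATAD2 and TATDN1, 2 for RAD21, DERL1 and SQLE, and 4 for MTSS1. It ranked 18 for MYC, 98 for RECQL4 and 162 for PTK2, so it was high at 6 of the 7 genes before MYC but not at those after it. FBXO32, the remaining gene before MYC, ranked 27 there. The dog with the highest MYC, COTC021 dog 72 at 371 CPM, was the lowest of 186 for DERL1 and ranked 183 for MTSS1 and 185 for PTK2. In COTC021 dog 10, MYC and RECQL4 both ranked 2 and PTK2 ranked 1, with 339 CPM of PTK2 and 19.7 CPM of RECQL4, while TATDN1 ranked 13, ATAD2 14, RAD21 15, MTSS1 26, FBXO32 58, DERL1 61 and SQLE 87. This dog was thus high at genes on both sides of MYC.

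Over all dogs, TATDN1 had the highest Pearson's r with MYC of the neighbors, while Spearman's rho was higher for RECQL4, and in COTC022 alone r was higher for PTK2, SQLE and RAD21. The r of TATDN1 with MYC was 0.29, with a 95% confidence interval from 0.15 to 0.41 and a two-sided permutation p of 5e-05. Spearman's rho was 0.20, with a permutation p of 0.00511, and r without the 2 dogs farthest from the median of MYC was 0.29. TATDN1 stood above 96.7% of all genes tested in its r with MYC. RECQL4 had an r of 0.22, a permutation p of 0.00287 and a rho of 0.22 with a permutation p of 0.00231. SQLE had an r of 0.20, a permutation p of 0.00548 and a rho of 0.18 with a permutation p of 0.0138. ATAD2 had an r of 0.19, a permutation p of 0.00976 and a rho of 0.18 with a permutation p of 0.0149. These p-values are not adjusted for the 9 relations examined. Without the same 2 dogs, r was 0.24 for RECQL4, 0.20 for SQLE and 0.24 for ATAD2.

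Over all dogs, the other neighbors did not vary detectably with MYC in Pearson's r, but 2 of them did without the 2 dogs farthest in MYC. DERL1 had an r of 0.12, with an interval from -0.03 to 0.26 and a permutation p of 0.108, but a rho of 0.16 with a permutation p of 0.0263. PTK2 had an r of 0.05 with a permutation p of 0.468, and a rho of 0.17 with a permutation p of 0.0234. FBXO32 had an r of 0.07 with a permutation p of 0.352, RAD21 one of 0.03 with a permutation p of 0.636, and MTSS1 one of -0.00089 with a permutation p of 0.99. Their rho was 0.06 for FBXO32, 0.04 for RAD21 and -0.0027 for MTSS1, with permutation p of 0.378, 0.603 and 0.971. Without the 2 dogs farthest from the median of MYC, r was 0.19 for DERL1 and 0.16 for PTK2, with permutation p of 0.00904 and 0.0305. For FBXO32, RAD21 and MTSS1 it was then 0.04, 0.09 and 0.04, with permutation p of 0.553, 0.222 and 0.579. The upper limits of the intervals, 0.21 for FBXO32, 0.18 for RAD21 and 0.14 for MTSS1, bound how strong a linear relation these dogs allow.

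The values of r are also given within the groups of libraries. After adjustment over all genes, no neighbor passed the test, given with these values, of a difference in MYC slope between these groups. The permutation p-values of r are not adjusted. TATDN1 had an r with MYC of 0.33 in COTC021 and 0.19 in COTC022, and of 0.45 in series A and 0.24 in series B. For RECQL4 the values were 0.26 and 0.17 in the trials, and 0.10 and 0.24 in the name series. SQLE had 0.14 and 0.29 in the trials and 0.29 and 0.17 in the name series, and ATAD2 had 0.21 and 0.15, then 0.05 and 0.22. All of these were above 0, though COTC022 alone gave permutation p of 0.0729 for TATDN1, 0.0932 for RECQL4 and 0.16 for ATAD2, and COTC021 alone 0.178 for SQLE. PTK2 had an r of -0.12 in COTC021 and 0.33 in COTC022, and RAD21 one of -0.11 and 0.28. In limma's fit, the difference in MYC slope between the trials was 0.31 for PTK2 (SE 0.10, unadjusted p = 0.00154, adjusted p = 0.637) and 0.27 for RAD21 (SE 0.10, unadjusted p = 0.0108, adjusted p = 0.713). No gene passed in limma's test of that difference, 0% of 13421, with 885 at an unadjusted p under 0.05. For the difference between the name series 1 gene passed, 0.00745%, with 977 at an unadjusted p under 0.05, and it was no neighbor of MYC named here.

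**Figure D3:**
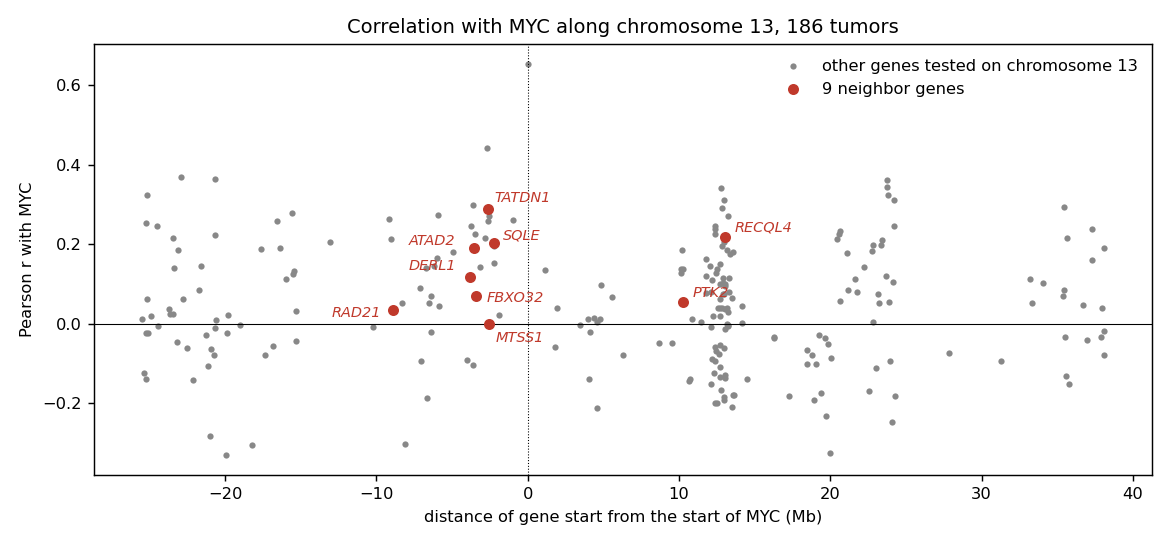
Pearson's r with MYC across 186 tumors against the distance of a gene's start from the start of MYC, in Mb. Red points are the 9 neighbors and grey points the other genes tested on chromosome 13. The neighbors lie between -0.00089 and 0.29, among the other genes, and the highest grey point, at 0.65, is the gene nearest to MYC.

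The gene that varied most closely with MYC was the nearest one tested. LOC102151812, annotated as a long noncoding RNA, starts 0.050 Mb after the start of MYC, and its r with MYC was 0.65, the highest of all genes tested. It ranged from 4.46 to 1102 CPM with a median of 28.1, and 6 of the 10 dogs highest in it were among the 10 highest in MYC. The r was 0.76 in COTC021, 0.42 in COTC022, 0.53 in series A and 0.68 in series B, and 0.59 without the 2 dogs farthest in MYC. LOC102151812 also varied with TATDN1, at 0.54, and with SQLE, at 0.31, while its r was -0.05 with PTK2 and 0.09 with MTSS1.

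The next genes along the chromosome had lower values. On the near side, LRATD2 had an r with MYC of 0.26, TRIB1, a pseudokinase gene, one of 0.02, and NSMCE2, a SUMO ligase gene of the SMC5/6 complex, one of 0.21. On the far side, LOC119864948 had 0.14 and CYRIB, a regulator of RAC1, had -0.06. Over the genes of chromosome 13 that are not members, the median r with MYC was 0.09 for the 6 genes within 2 Mb and 0.14 for 23 genes between 2 and 5 Mb. It was 0.05 for 19 genes between 5 and 10 Mb, 0.02 for 108 genes between 10 and 20 Mb and 0.06 for 85 genes farther away. The median of 12571 genes on the other autosomes was -0.00016. The medians were thus all above that of the other autosomes, but all were small.

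Beyond LOC names, the 10 genes with the highest r with MYC all lie on other chromosomes. They were NLE1 at 0.51, POLR1G, NOL6 and USP36 at 0.50, DKC1 at 0.49, CDCA7 and METTL16 at 0.47, and RRS1, UTP4 and TCOF1 at 0.46. NLE1, NOL6, RRS1 and UTP4 encode factors of ribosome assembly, POLR1G a subunit of RNA polymerase I, DKC1 the pseudouridine synthase dyskerin and TCOF1 a nucleolar protein of ribosomal RNA transcription. The 5 lowest were MCOLN3 at -0.47, PHF1 at -0.45, and ZNF365, ARSK and YPEL5 at -0.44. Of the 100 genes most like MYC in r, 2 lie on chromosome 13, close to the 1.87% of all genes tested that lie there.

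Each member was then compared with its chromosomal surroundings, as r with the mean of the genes within 5 Mb, leaving out those within 100 kb. DERL1 had 0.74, TATDN1 0.67, RAD21 0.67 and ATAD2 0.63, above 99.2%, 96.1%, 95.7% and 92.4% of 12762 genes with enough neighbors. PTK2 had 0.53, SQLE 0.42, RECQL4 0.42 and MTSS1 0.39, and FBXO32 had 0.32. MYC had the lowest value of the members, 0.23, above 25.8% of genes. For MYC, the excluded distance removes LOC102151812, the gene closest to it in r. Including that gene, 6 tested genes that are not members start within 2 Mb of MYC, and 23 between 2 and 5 Mb. Its surroundings are thus mostly genes farther off. The members before MYC share many of these surrounding genes, so their values are not independent of each other.

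The surroundings of MYC also moved little with it in each group of libraries. Its r was 0.27 in COTC021, 0.14 in COTC022, 0.29 in series A and 0.21 in series B. DERL1 stayed between 0.67 and 0.79 in the same groups, and RAD21 between 0.63 and 0.73. MTSS1 had 0.53 in COTC021 and 0.20 in COTC022, and SQLE 0.30 and 0.55. Chromosome 13 as a whole had a median r of genes with their surroundings of 0.47, against 0.38 over all genes, and ranked 2 of 38 autosomes. Pairs of genes between 0.1 and 2 Mb apart had a median r of 0.29 on chromosome 13 and 0.15 on the other autosomes, and chromosome 13 ranked 1 of 38. At 2 to 5, 5 to 10 and 10 to 20 Mb apart it ranked 9, 10 and 14. The medians there were 0.15, 0.13 and 0.10, against 0.11, 0.09 and 0.07 on the other autosomes. At 20 to 40 Mb apart the medians were 0.07 and 0.06, and chromosome 13 ranked 19.

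The genes most like each member, named after their values were seen, fell into different kinds. For RAD21 the closest was MED30, a Mediator subunit gene, at 0.75, and each of its 20 closest genes lies on chromosome 13. All 20 of PTK2 do as well, 19 of DERL1, 15 of TATDN1, 8 of ATAD2 and 5 of SQLE, whereas 1.87% of all genes tested lie there. For MYC and RECQL4 it was 1 gene of 20, and for FBXO32 and MTSS1 0. DERL1 and ATAD2 both had TBC1D31, a centrosomal protein gene, as the closest, at 0.71 and 0.78. TATDN1 had NDUFB9, a subunit gene of mitochondrial complex I that begins just beyond it, at 0.80. RECQL4 had TONSL, a replication fork repair gene of the same chromosome, at 0.81.

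The members were next compared with lists of genes that share their function. SQLE varied with the sterol synthesis genes, 15 of 15 above 0 with a median r of 0.56. Among them were SREBF2, the transcription factor that drives the pathway, at 0.70, and IDI1 and FDPS at 0.67. RECQL4 had a median of 0.57 with 12 replication helicase genes, led by CDC45 at 0.69, MCM5 and MCM10 at 0.62 and MCM2 at 0.61. ATAD2 had a median of 0.56 with 10 proliferation genes, led by TPX2 at 0.64 and BUB1 and TOP2A at 0.62. WRN was the exception among the helicase genes, at -0.09. The lists were not particular to 1 member: RECQL4 had a median of 0.63 with the proliferation genes, and ATAD2 one of 0.51 with the helicase genes.

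FBXO32 had a median of 0.27 with 9 genes of muscle atrophy and FOXO signaling, led by TRIM63, the other classic ligase of wasting muscle, at 0.58 and by GABARAPL1 at 0.41. It also had a median of 0.38 with 8 skeletal muscle genes, among them DES at 0.45 and ACTA1 and MYL1 at 0.40. All 8 muscle genes were detected somewhere, and their summed level reached 22938 CPM in COTC021 and 64722 CPM in COTC022, with medians of 49.2 and 45.3 CPM. MYH1 was at 0 in 36 dogs, MYH2 in 28, TNNT3 in 19, MYL1 in 17, CKM in 15, ACTA1 in 3 and NEB in 1. The part of muscle in the level of FBXO32 was not tested. Its r with the muscle score was 0.42, 0.32 without the 2 dogs farthest in that score, and its rho was 0.25.

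The remaining members followed their functional partners weakly. RAD21 had a median r of 0.21 with 10 cohesin genes, with STAG2 at 0.40 the highest. DERL1 had a median of 0.07 with 11 genes of ER-associated degradation, where HSPA5, the ER chaperone BiP, had 0.29 and UBE2J1 -0.21. PTK2 had a median of 0.02 with 12 focal adhesion genes, with CRK at 0.22 and GRB2 at -0.19. For MTSS1 and TATDN1 no list of their own was set. Of all the lists, MTSS1 had its highest median r with the osteoblast markers, 0.39, with 7 of 8 above 0. Its r with their score was 0.45. With the endothelial genes its median was 0.25, also with 7 of 8 above 0.

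**Figure D4:**
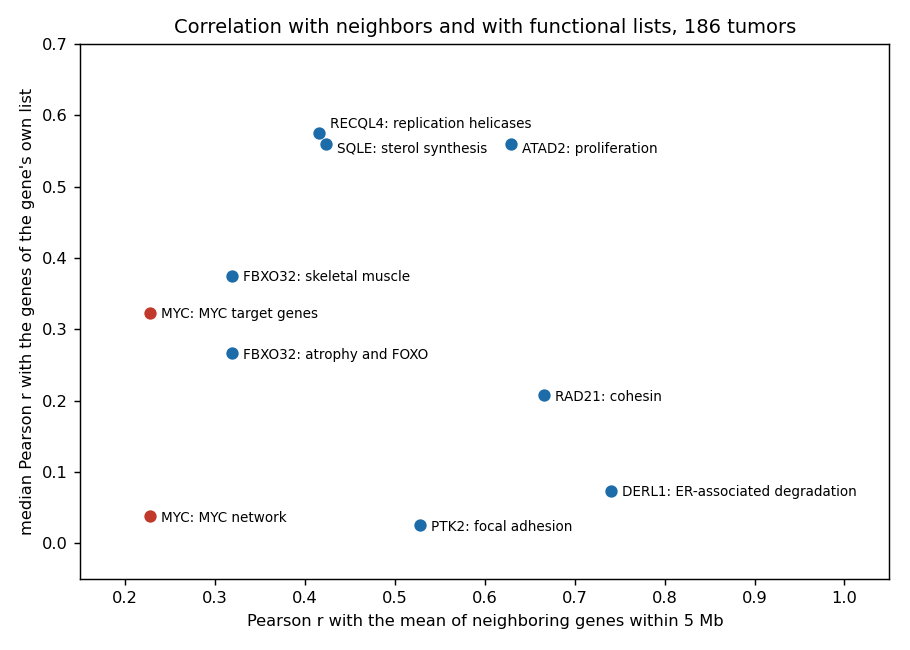
Median Pearson's r of a gene with its functional list, on the vertical axis, against its r with the mean of genes within 5 Mb, on the horizontal axis, across 186 tumors. Each point is a member with 1 list, red for MYC. DERL1, RAD21 and PTK2 lie to the right and low, SQLE and RECQL4 high and farther left, ATAD2 high on both axes, and MYC at the left edge.

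With MYC as the explanatory variable in limma-voom, the level of each gene was expressed as the log2 change per doubling of MYC. Of 13421 genes tested, 1481 rose with MYC (11.0%) and 1131 fell (8.43%) at an adjusted p under 0.05. Of the 9 neighbors, 4 rose and 0 fell. TATDN1 rose by 0.26 (SE 0.06, adjusted p = 0.000629), SQLE by 0.33 (SE 0.12, adjusted p = 0.0326), ATAD2 by 0.17 (SE 0.06, adjusted p = 0.0489) and RECQL4 by 0.28 (SE 0.11, adjusted p = 0.0496), with p-values adjusted over all genes by the Benjamini-Hochberg method. The estimate was 0.08 for DERL1 (adjusted p = 0.285), 0.08 for FBXO32 (0.554), 0.03 for PTK2 (0.649), 0.02 for RAD21 (0.795) and 0.00051 for MTSS1 (0.998). With scaling to library totals in place of TMM, 2809 genes rose and 590 fell, and the median change of all genes was 0.04 in place of 0.00018, so the split of the calls depends on the scaling.

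Of the neighbors, only TATDN1 passed in series B, in COTC021 alone, or with scores for proliferation, leukocyte and osteoblast genes in the fit. Of all 13421 genes, 1364, 1099 and 842 rose in these fits. Under that last fit, the estimate of ATAD2 went from 0.17 to 0.02 and that of RECQL4 from 0.28 to 0.0052, while TATDN1 had 0.22 (adjusted p = 0.00901). The proliferation score itself had an r of 0.71 with RECQL4, 0.64 with ATAD2, 0.37 with SQLE and 0.31 with RAD21. It had 0.25 with both TATDN1 and MYC, 0.18 with DERL1 and -0.30 with FBXO32. In series A or in COTC022 alone, 0 neighbors passed, with 0 and 310 genes called in all and 1197 and 1837 genes at an unadjusted p under 0.05.

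MYC moved with genes it is known to activate, and so did some of its neighbors. Of 26 MYC target genes, 21 rose with MYC in limma's test and 0 fell, beside 11.0% and 8.43% of all genes. Their median change was 0.22 per doubling, against 0.00018 over all genes. This list, like the others, was chosen with earlier results of these data known. The list was not particular to MYC: its median r was 0.32 with MYC, 0.41 with RECQL4 and 0.31 with ATAD2. It was 0.24 with TATDN1, 0.21 with SQLE, 0.13 with DERL1, 0.11 with RAD21, 0.03 with PTK2, -0.10 with MTSS1 and -0.16 with FBXO32. DKC1 rose by 0.32 (adjusted p = 5.41e-09), FBL, the methyltransferase of small nucleolar RNPs, by 0.32 (adjusted p = 1.22e-07) and NOP58, its partner, by 0.32 (adjusted p = 1.14e-05). CCND2, which encodes cyclin D2, had the largest estimate, 0.34, but did not pass (adjusted p = 0.21). Of 10 proliferation genes, 9 rose, and of 12 replication helicase genes 10. Of 15 sterol synthesis genes, the pathway of SQLE, 4 rose and 1 fell, with a median of 0.13.

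Of 16 genes of the MYC network, its partners and antagonists, 3 rose and 0 fell, beside 11.0% and 8.43% of all genes, with a median of 0.02. AURKA, a kinase that shields MYC-family proteins from degradation, rose by 0.32 (adjusted p = 0.00109), MGA, a MAX partner that opposes MYC, by 0.14 (adjusted p = 0.0113), and USP28, a deubiquitinase of MYC, by 0.18 (adjusted p = 0.0393). MAX, the obligate partner, had an estimate of 0.09 (adjusted p = 0.0773). The MAX-binding repressors MXD1, MXD3, MXD4, MXI1 and MNT had estimates from -0.0069 to 0.13, and MLX and MLXIP lay at -0.0030 and 0.03. MYCN and MYCL, the paralogs, had -0.15 and -0.03, and FBXW7, ZBTB17 and TRRAP lay between 0.00050 and 0.02, none of which passed. Of the other lists, focal adhesion had 0 that rose and 3 of 12 that fell, and the leukocyte markers 0 and 3 of 11. ER-associated degradation had 2 of 11 and atrophy and FOXO 2 of 9 that fell, and 1 of 10 cohesin genes rose. Of the 27 GS-1 genes and of 8 endothelial genes, 1 each fell. No osteoblast, skeletal muscle, cartilage or adipocyte gene passed.

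The GS-1 signature is the immune gene signature that the study used to class tumors, and here it served as a continuous score, the mean z-score of its 27 genes that passed the filter. Of 13395 other genes tested, 3032 rose with it (22.6%) and 3606 fell (26.9%). Of the 10 members, 5 fell and 0 rose. Per SD of the score, limma's log2 change was -0.19 for RAD21 (SE 0.04, adjusted p = 5.82e-06), -0.24 for ATAD2 (SE 0.05, adjusted p = 1.93e-05), -0.41 for SQLE (SE 0.09, adjusted p = 0.00011), -0.34 for RECQL4 (SE 0.09, adjusted p = 0.000791) and -0.12 for DERL1 (SE 0.04, adjusted p = 0.00998). PTK2 had -0.08 (adjusted p = 0.0736), TATDN1 -0.09 (0.122), FBXO32 -0.10 (0.24), MYC -0.05 (0.504) and MTSS1 0.01 (0.926). For MYC, an interval of 2 SE spans 0, so no relation with GS-1 was detectable. The split of calls was 3335 up and 2544 down with library totals, where 4 members fell. In series A 5 members fell, beside 1367 of all 13395 genes, and in series B 3, beside 2588. In COTC022 alone 4 members fell, beside 2343 genes, and in COTC021 alone 1, SQLE, beside 1466.

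Other cell types moved with the same score. All 11 leukocyte markers tested rose with it, with a median of 1.07, and none of them is a GS-1 gene. Their summed level over the 12 markers ranged from 135 to 4460 CPM in COTC021 and from 132 to 9577 CPM in COTC022, and CD5 was at 0 in 14 dogs while the others were detected in all. All 10 proliferation genes fell, with a median of -0.27, as did 9 of 12 replication helicase genes, 12 of 15 sterol synthesis genes and 19 of 26 MYC target genes, of which 1 rose. Of the osteoblast markers 5 of 8 fell, with a median of -0.29, and all 5 cartilage genes tested fell, with a median of -0.71. Of the endothelial genes 7 of 8 rose, as did 2 of 8 skeletal muscle genes and the 1 adipocyte gene tested. The part of these cells in the fall of the members was not tested. With the proliferation and osteoblast scores in the fit, 2 members passed, beside 2056 of all 13395 genes that rose and 2088 that fell. RAD21 fell by 0.16 (adjusted p = 0.000944), and MTSS1 rose by 0.21 (adjusted p = 0.0123), while RECQL4 had 0.03 (adjusted p = 0.807).

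**Figure D5:**
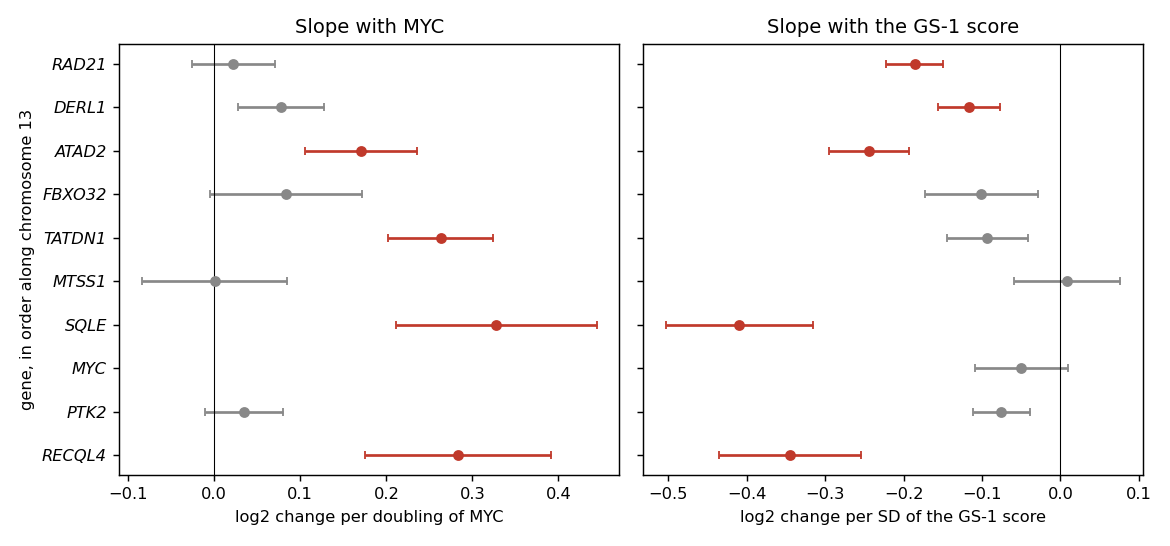
Change of each gene per doubling of MYC (left) and per SD of the GS-1 score (right), as limma's log2 change with bars of 1 SE, over 186 tumors. Red marks an adjusted p under 0.05. TATDN1, SQLE, ATAD2 and RECQL4 rise with MYC, and RAD21, DERL1, ATAD2, SQLE and RECQL4 fall with the GS-1 score.

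Between the trials, limma called 1 gene higher and 1 lower in COTC022, 0.00745% each of 13422, with 1520 at an unadjusted p under 0.05, and 0 of the 10 members. DERL1 had the smallest p of the members, with a mean log2 CPM of 7.06 ± 0.61 (SD, n = 93) in COTC021 and 6.83 ± 0.48 (SD, n = 93) in COTC022. Its difference was -0.24 (SE 0.08, unadjusted p = 0.00411, adjusted p = 0.215), with an adjusted p of 0.0518 in edgeR's quasi-likelihood test and 0.039 in DESeq2. MYC had a mean log2 CPM of 4.81 ± 0.97 (SD, n = 93) in COTC021 and 4.83 ± 0.62 (SD, n = 93) in COTC022. With the name series as a covariate, its difference was -0.03 (SE 0.12, adjusted p = 0.961), and without it 0.0094 (adjusted p = 0.991). The 5 highest dogs for MYC included 4 of COTC021.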

How the data were processed

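Primary tumor mRNA of 186 dogs was analysed from the deposited table of expected counts, which the authors made with STAR 2.7.0f and RSEM 1.3.1 on the build GSD_1.0, per their methods and processing notes. The values are not normalized, 3.07% were not whole, and they were rounded. Of 198 columns, 12 were not used.

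Trials came from the sample titles. Low-count genes were removed with filterByExpr, where min.count was 10, min.prop was 0.5 and large.n was 5. Log2 CPM used TMM in edgeR 4.0.16 with a prior count of 2, CPM in the text is per library total, and slopes came from limma 3.58.1 voom in R 4.3.3 with trial and name series as covariates. The alternatives were edgeR's quasi-likelihood test, DESeq2 1.42.0 and the settings named in the closing section. Correlations used Python 3.11.15, numpy 2.4.6 and scipy 1.17.1 with 100000 resamples, and 1e-05 is the smallest p these can give. The self-test was run on simulated data.

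The members and the gene lists were chosen with earlier results of these data known. Positions are from RefSeq (UU_Cfam_GSD_1.0), matched by symbol for 98.0% of genes. Named genes are the members, the 10 highest and 5 lowest in r with MYC without LOC names, the 3 nearest tested genes on each side of MYC, the MYC network and up to 4 genes of any other list. Gene copy number and clusters, DFI and OSv were not analysed here. Results for some genes are left out.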

Additional observations from a re-analysis of the deposited data

How the results depend on the processing

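The count of members that rose with MYC was 4. It was 1 without the low-count filter, 1 in series B, 1 in COTC021 and 1 with proliferation, leukocyte and osteoblast scores in the fit. It was 0 in series A and 0 in COTC022. Without the low-count filter, 1252 of 30013 genes rose. Of 13421 genes, 1364 rose in series B, 1099 in COTC021 and 842 with those scores, against 1481 in the main fit. Of all genes, 2612 moved with MYC, against 0 in series A, 310 in COTC022 and 1493 with those scores. edgeR and DESeq2 also called DERL1. Of r values with MYC, 4 had a p under 0.05, and 2 did after removal of those scores. Of these 2, TATDN1 was among the 4 and FBXO32 was not, while ATAD2, SQLE and RECQL4 were lost. Without the 2 dogs farthest in MYC, DERL1 and PTK2 had a permutation p under 0.05 beside those 4.

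For the GS-1 score, 5 members were called, and 5 in series A, 3 in series B, 4 in COTC022, 1 in COTC021 and 2 with proliferation and osteoblast scores. Of all genes, 6638 were called, against 3233 in series A, 3237 in COTC021 and 4144 with those scores. For the trials, 2 genes were called in limma, 131 in edgeR, 168 in DESeq2, 0 with library totals, 6 without the low-count filter, 0 in series A and 8 in series B, and 1 member, DERL1, was called in DESeq2.

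The estimates that changed sign did not pass in the setting that changed it. Per doubling of MYC, MTSS1 had -0.17 in series A and -0.24 in COTC022, PTK2 -0.067 in COTC021, and RAD21 -0.0035 in series B, -0.072 in COTC021 and -0.041 with the scores. With the GS-1 score, MTSS1 had -0.11 in edgeR, -0.11 in DESeq2 and -0.0032 in COTC022. With proliferation and osteoblast scores, MYC had 0.018 and RECQL4, which had passed at -0.34, had 0.027. Between the trials, without the name series as a covariate, MYC had 0.0094, MTSS1 0.019 and RECQL4 0.00028. In series B, MYC had 0.069, MTSS1 0.050, TATDN1 0.011 and RECQL4 0.15. RECQL4 also had 0.24 in edgeR, 0.23 in DESeq2, 0.0015 with library totals and 0.0062 without the low-count filter.

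In r with MYC, RAD21 had -0.066 after removal of the scores, -0.11 in COTC021 and -0.0080 in series B, and PTK2 had -0.12 in COTC021. MTSS1 had 0.067 with library totals, 0.011 without removal of trial and name series, 0.016 after removal of the scores, 0.087 in COTC021, 0.023 in series B and 0.041 without the 2 dogs farthest in MYC. The median r among the neighbors was 0.34 with library totals. Values of r within groups of libraries for pairs of members and for surroundings, and r without the 2 farthest dogs, were chosen after seeing the data. The cause of these changes was not tested.

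No paired analysis was possible because each dog belongs to 1 trial and the replicate numbers only name the samples. A window of 2 Mb left too few surrounding genes for MYC and RAD21 and gave no value for them. RECQL4 had the lowest median count of the members, 56.5, and its lowest dog had 1 count.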
